A study of Mus musculus with 12 samples.

Results

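Somatostatin interneurons in libraries labelled as hippocampus were examined as 249 of 184957 retained nuclei, with 7 to 42 nuclei in each of 12 single-nucleus RNA-seq libraries. A nucleus was retained with 500 to 10000 detected genes and counted as a somatostatin nucleus when its raw unique molecular identifiers (UMIs) included at least 1 of Gad1 or Gad2, at least 2 of Sst and at least 1 of Lhx6, none of Pvalb, Slc17a7, Slc17a6 or Rgs9, and fewer than 2 of Mobp. These 9 genes chose the nuclei, so their levels are described and not tested. Each library held sorted nuclei of the left hippocampus of a single female mouse. The design set 4 groups of 3 mice against each other: 3xTg-AD and WT littermates at 6 months, and 3xTg-AD and WT littermates at 12 months. The 3xTg-AD line is on a mixed B6;129 background and carries human APP with the Swedish mutation and human tau with the P301L mutation beside a knock-in allele, while the WT littermates carry none of these. The transgenes of this line are driven by a neuronal Thy1 promoter cassette, and the design held neither the single alleles nor males.

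Somatostatin interneurons are GABAergic neurons that arise in the medial ganglionic eminence, where Lhx6 and then Sox6 and Satb1 direct their maturation. In the hippocampus they include cells of the stratum oriens whose axons reach the distal dendrites of pyramidal cells, cells that innervate proximal dendrites, hilar cells of the dentate gyrus that contain somatostatin and neuropeptide Y, and long-range cells that contain nitric oxide synthase. They release GABA together with the peptide somatostatin, whose precursor is cut by convertases in dense-core vesicles, and loss of somatostatin is a known feature of the Alzheimer brain.

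The markers of the label were described. Sst, Gad1 and Gad2 are genes of the rule, so their values follow from it and do not check the label. Sst, the somatostatin precursor gene (chromosome 16, 23889573 to 23890958, minus strand, mm10), was at a median of 3.5 to 7 UMIs per somatostatin nucleus in the 12 libraries, and at up to 53 in a single nucleus. Of the 249 nuclei, 59 lay just inside the threshold with 2 Sst UMIs and 132 held 5 or more. Another 110 nuclei met every other condition with 1 Sst UMI and lay just outside, and 899 nuclei with at least 2 Sst UMIs lacked an Lhx6 UMI. Gad1 and Gad2, the enzymes that make GABA, had a UMI in 78.7% and 83.9% of somatostatin nuclei. Grin3a, an NMDA receptor subunit that the rule did not use, was found in 88.4%, at 635.7 CPM (the UMIs of a gene in every 1000000 UMIs summed over the nuclei). The 110 nuclei with 1 Sst UMI held 339 CPM of Grin3a, and the 899 nuclei without Lhx6 held 302 CPM. In each of the 12 libraries the Grin3a level of the somatostatin nuclei was above that of the nuclei without Lhx6.

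Free RNA in the droplets gives Sst UMIs to cells that do not transcribe the gene. In oligodendrocytes, which should lack Sst, 0.509% to 4.77% of nuclei per library had an Sst UMI, and 0% to 0.922% had 2 or more. The median depth was 2377.5 to 3637.5 UMIs in oligodendrocytes and 6530 to 12991 UMIs in somatostatin nuclei, so the classes are not at equal depth. Of GABAergic nuclei, 5.24% to 11.1% per library had an Sst UMI at median depths of 6415 to 9311 UMIs. Libraries totalled 79177051 to 128323908 UMIs, and the somatostatin nuclei of a library together held 63352 to 360054. Scrublet, run per library, marked 13 of the 249 nuclei as doublets, and they were kept unless stated. Libraries shared 29 to 105 of their barcodes in each of the 66 pairs of libraries; 12 somatostatin nuclei had a barcode that was also retained in another library, and 0 were somatostatin nuclei in both.

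Markers of other cells were read as summed levels in the somatostatin nuclei and in the other GABAergic nuclei. Of 4 endothelial markers, Flt1 and Cldn5 were at 0 and the summed level was 0 to 13.9 CPM per library. The 13 thalamic, habenular and hypothalamic markers summed to 11.4 to 259 CPM, below the 513 to 1142 CPM of the other GABAergic nuclei in 12 of 12 libraries, with Sox14 and Otp at 0. The 8 markers of striatal medium spiny neurons summed to 868 to 1688 CPM and were below the other GABAergic nuclei in 6 of 12 libraries only. Of these 8 genes, 6 were detected, and Ppp1r1b and Adora2a were at 0. Rgs9, a striatal gene, had a UMI in 22.0% to 57.0% of the GABAergic nuclei per library and at least 2 UMIs in 5.67% to 43.2%. Oligodendrocyte nuclei, which should lack Rgs9, had a UMI in 0.34% to 3.02% at a median depth of 2378 to 3638 UMIs, against 6415 to 9311 in the GABAergic nuclei. Whether every somatostatin nucleus, those with Nos1, Npy or Chodl included, came from the hippocampus was not tested. The 6 astrocyte markers summed to 62.9 to 770 CPM and the 4 oligodendrocyte precursor markers to 47.4 to 819 CPM, both below the other GABAergic nuclei in 12 of 12 libraries. The 6 excitatory markers, with Neurod6 at 0, summed to 107 to 442 CPM and were below in 11 of 12. The 5 oligodendrocyte markers at 29.6 to 544 CPM and the 6 microglial markers at 9.87 to 146 CPM were each below in 7 of 12 libraries only. The sum of the 6 Vip and Lamp5 interneuron markers, 19.7 to 944 CPM, came mostly from Adarb2 (503 CPM pooled), and Vip itself was at 0.

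WT libraries at 6 months held 20, 25 and 24 somatostatin nuclei, which were 0.165%, 0.156% and 0.152% of the retained nuclei. The 3xTg-AD libraries at 6 months held 18, 8 and 22, or 0.127%, 0.0505% and 0.123%. At 12 months the WT libraries held 7, 19 and 13, or 0.0388%, 0.144% and 0.115%, and the 3xTg-AD libraries 42, 27 and 24, or 0.279%, 0.172% and 0.121%. The lowest counts were those of WT replicate 4 at 12 months (7 nuclei) and 3xTg-AD replicate 5 at 6 months (8 nuclei). Every 3xTg-AD share of retained nuclei lay below every WT share at 6 months, and at 12 months the 2 genotypes overlapped.

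**Figure D1:**
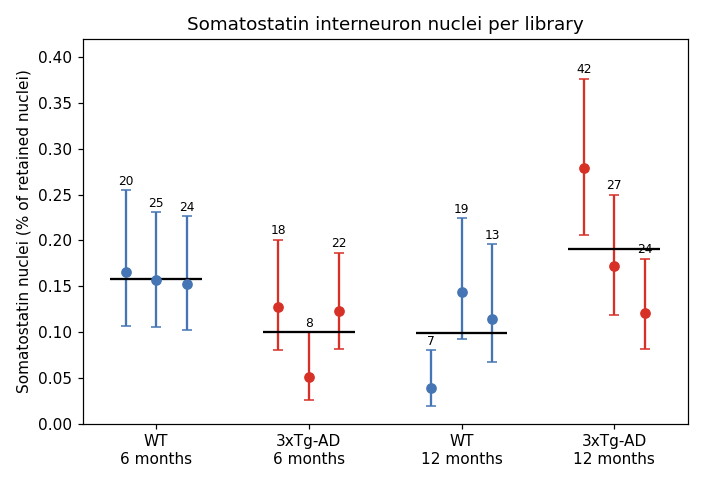
Share of somatostatin nuclei among the retained nuclei (y axis, %) in each of the 12 libraries, grouped by genotype and age (x axis). Points are libraries, vertical bars are 95% Wilson intervals that cover counting error only, horizontal lines are group means and the number above each point is the count of somatostatin nuclei; the 6-month 3xTg-AD points (0.0505% to 0.127%) sit below the 6-month WT points (0.152% to 0.165%), and the 12-month groups overlap.

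None of the genotype tests of this share passed the adjusted threshold. Over both ages the share was 0.145% ± 0.0761 (SD, n = 6) in 3xTg-AD and 0.128% ± 0.0472 (SD, n = 6) in WT, a difference of 0.0170 percentage points (two-sided exact permutation test, p = 0.706). Its sign changed without 3xTg-AD replicate 2, to -0.009644 points. The difference was -0.0576 points at 6 months (exact p = 0.1, the smallest that 3 libraries against 3 allow) and 0.0916 points at 12 months (exact p = 0.2). Without 3xTg-AD replicate 5 the 6-month value was -0.0327 points, and without 3xTg-AD replicate 2 the 12-month value was 0.0475 points. The change of the genotype difference with age, 0.149 points, had p = 0.01 when genotypes were permuted inside each age, and p = 0.15 after Benjamini-Hochberg adjustment over the 15 share tests, all by exact permutation. Over the alternatives without 1 library it stayed between 0.105 and 0.184 points, with the lowest value without 3xTg-AD replicate 2. As a share of GABAergic nuclei the same change was 0.342 points (exact permutation p = 0.075, adjusted p = 0.5). At 6 months the shares of GABAergic nuclei overlapped between genotypes. They were 0.518%, 0.172% and 0.367% in 3xTg-AD and 0.567%, 0.543% and 0.426% in WT (exact permutation p = 0.2). The ratio of somatostatin to Pvalb nuclei, the other class from the medial ganglionic eminence, was 2.63 ± 0.980 (SD, n = 6) in 3xTg-AD and 2.38 ± 0.991 (SD, n = 6) in WT (exact permutation p = 0.671). The difference of this ratio changed sign without WT replicate 4, to -0.07579. A share of nuclei that pass a UMI threshold falls with fewer cells and with less Sst or Lhx6 RNA per nucleus alike, and the 2 cannot be told apart. The share also depends on the other nuclei of a library. Rgs9 had a UMI in 22.0% to 57.0% of GABAergic nuclei per library, and its part in the shares was not tested. The p-values measure the spread between libraries, each of 1 mouse.

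The somatostatin nuclei carried the transcription factors of their lineage. Sox6 had a UMI in 86.7% of them, Satb1 in 65.9% and Nkx2-1, which acts earlier in the eminence, in 7.2%. Sox6 was at 1519 CPM pooled over the libraries, against 733 CPM in the 103 Pvalb nuclei and 81.6 CPM in the 185 Vip nuclei, which arise elsewhere. Of 7 tested genes in the list of these factors, Sox6 included, 0 were higher than in Pvalb nuclei in 12 of 12 libraries. None were lower in all 12, beside 4.37% higher and 2.82% lower over all genes tested. By library the Sox6 level ran from 424 to 2217 CPM, with the lowest value in WT replicate 4 at 12 months. Nxph1, a secreted neurexin ligand of interneurons, had a UMI in 92.8% of the nuclei.

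**Figure D2:**
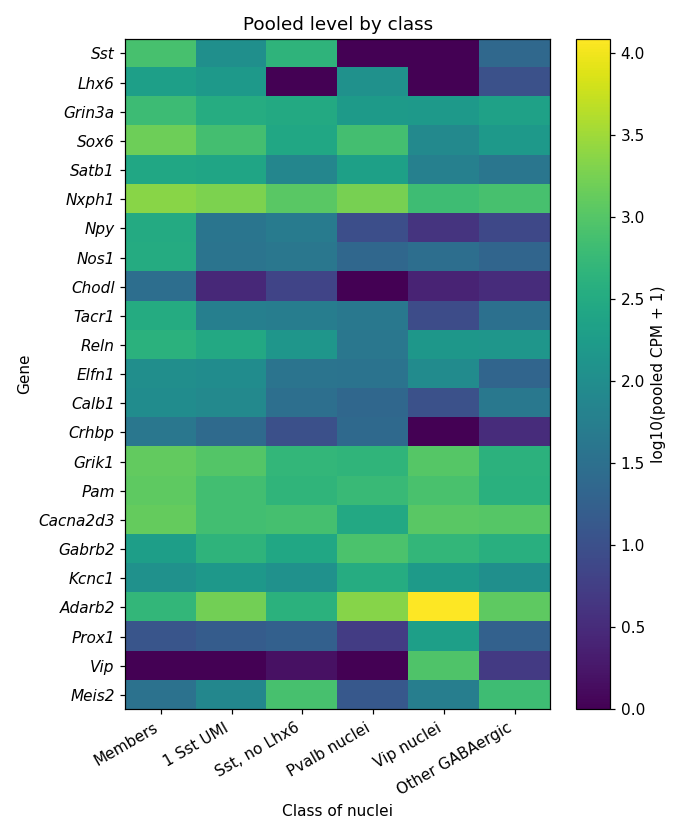
Pooled level of marker and subtype genes (rows) in 6 classes of nuclei (columns), as log10 of CPM plus 1. Somatostatin nuclei stand in the first column; Npy, Chodl and Tacr1 are brightest there, while Gabrb2 is brighter in the Pvalb and Vip columns.

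Peptides and their receptors marked part of the nuclei. Npy, the neuropeptide Y precursor, had a UMI in 130 of 249 nuclei (52.2%) and was at 316.8 CPM, against 8.71 CPM in Pvalb, 3.11 CPM in Vip and 6.69 CPM in the other GABAergic nuclei. Its level was higher in the somatostatin nuclei than in each of those classes in 12 of 12 libraries. Tacr1, the receptor for substance P, was found in 131 nuclei and at 331.8 CPM, against 42.1 CPM in Pvalb nuclei and 7.77 CPM in Vip nuclei. Cort, which encodes the related peptide cortistatin, had a UMI in 4.02% of nuclei, Tac1 in 14.9%, Pnoc in 12.0% and Pdyn in 2.81%. Chrna2, the nicotinic subunit known from oriens cells that target distal dendrites, had 0 UMIs in 249 nuclei, which allows a share of nuclei with a UMI of up to 1.20%. Of the somatostatin receptors, Sstr1 had a UMI in 13 nuclei, Sstr2 in 6 and Sstr4 in 1, and Sstr3 and Sstr5 were at 0.

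Genes for peptide processing were set beside Pvalb nuclei, with 3 described here after their values were seen. Of 11 tested genes of that list, 1 was higher in somatostatin nuclei in 12 of 12 libraries and 0 were lower in all, beside 4.37% and 2.82% of all genes tested. The Pvalb nuclei held 2241 CPM of Adarb2, a gene of Vip and Lamp5 interneurons, against 503 CPM in somatostatin nuclei and 12243 CPM in Vip nuclei, and the part of this in the differences was not tested. Pam, which amidates peptides though not somatostatin itself, was at 1196 CPM against 598 CPM in Pvalb nuclei and was higher in 11 of 12 libraries. Pcsk2, a convertase that cuts peptide precursors, was at 351 CPM against 128 CPM and higher in 12 of 12. Cadps, which primes dense-core vesicles for release, ran the other way, at 1204 CPM against 1640 CPM and higher in 1 of 12 libraries. Because the rule separates these classes, the differences are descriptions and carry no test.

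Receptor and channel genes were read in the same descriptive way, and those described were picked after their values were seen. Of 10 tested GABA-A receptor subunits, 2 were higher and 3 lower than in Pvalb nuclei in 12 of 12 libraries. For 16 ionotropic glutamate receptor subunits the counts were 3 and 1, and for 22 voltage-gated channels 3 and 4, beside 4.37% higher and 2.82% lower over all genes tested. Cacna2d3, a calcium channel subunit, was at 1307 CPM in somatostatin nuclei and 295 CPM in Pvalb nuclei, and Grik1, a kainate receptor subunit, at 1294 and 469 CPM. Both were higher in the somatostatin nuclei in 12 of 12 libraries, as was Gabra2, a GABA-A receptor subunit (439.9 against 125 CPM). Gabrb2 (196.6 against 863 CPM), Gria4 (1534 against 2124 CPM), Scn1a (376.8 against 625 CPM) and Kcnc1, a fast potassium channel (117.6 against 339.8 CPM), were lower in 12 of 12. Gabrb2 was also lower than in Vip nuclei and in the other GABAergic nuclei in 12 of 12 libraries.

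The somatostatin nuclei were heterogeneous in the subtype genes they carried. Nos1, neuronal nitric oxide synthase, had a UMI in 88 of 249 nuclei (35.3%). Of these 88, 79.5% also had Npy, compared with 37.3% of the 161 nuclei without Nos1. Tacr1 was found in 92.0% of the Nos1 nuclei and in 31.1% of the others, and Chodl, a membrane protein known from long-range somatostatin cells of the cortex, in 31.8% and 6.21%. Reln, the secreted protein reelin, went the other way, at 35.2% of nuclei with Nos1 and 61.5% of those without, and so did Elfn1, a postsynaptic adhesion protein that oriens interneurons make themselves, at 22.7% and 49.7%. These shares count detected UMIs in nuclei pooled over libraries and are given without a test.

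Clustering of the 249 nuclei without the 9 genes of the rule gave 5 sub-clusters, named here by number and leading genes. Sub-cluster 1 (71 nuclei) was led by Nfib, Ano2 and Prlr, and held 8 of the 13 Scrublet doublets. Sub-cluster 2 (67 nuclei, 0 doublets) was led by Dach1, Nos1 and Rarb, and its nuclei had Sox6 in 100%, Npy in 85.1%, Tacr1 in 83.6% and Chodl in 40.3%. Sub-cluster 3 (47 nuclei, 4 doublets) was led by Zeb2, Zfpm2 and Daam2, with Elfn1 in 87.2% of nuclei. Sub-cluster 4 (37 nuclei) was led by Ccbe1, Ptprk and Hs3st4, with Reln in 83.8%. Sub-cluster 5 (27 nuclei from 8 of 12 libraries) was led by Rgs6, Eya1 and Npas3, with Reln in 81.5% and Nos1 in 0. The Sst level differed among them, from 417 CPM in sub-cluster 3 to 1439 CPM in sub-cluster 2. Grin3a was detected in 83.8% to 96.3% of the nuclei of every sub-cluster.

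**Figure D3:**
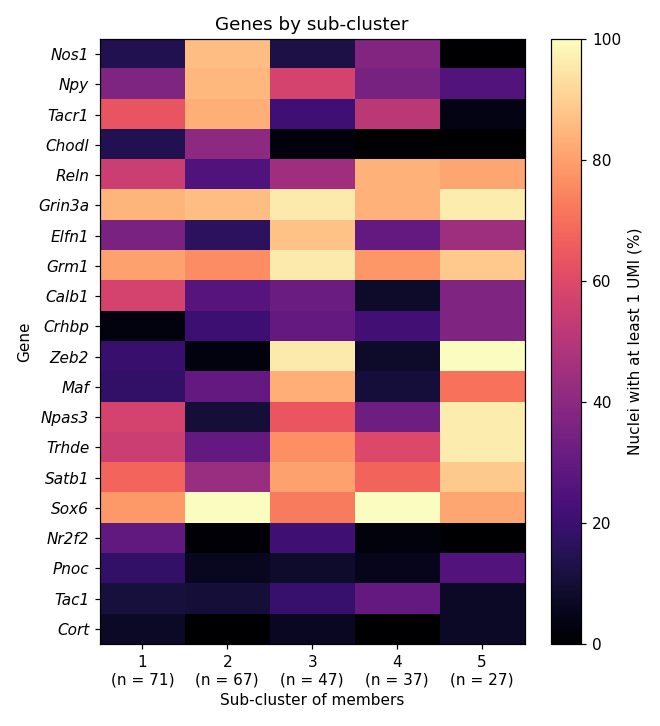
Share of nuclei with at least 1 UMI (colour, %) for subtype and lineage genes (rows) in the 5 sub-clusters of somatostatin nuclei (columns, with their number of nuclei). Nos1, Npy, Tacr1 and Chodl are highest in sub-cluster 2, Elfn1 in sub-cluster 3, and Reln in sub-clusters 4 and 5.

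Shares of the sub-clusters were compared between genotypes and ages in 23 exact permutation tests, of which 0 reached an unadjusted p under 0.05. The exact tests of 3 libraries against 3 could not go below p = 0.1. At 12 months sub-clusters 1 and 5 were at that limit without overlap, with sub-cluster 1 at 23.4% ± 7.58 of somatostatin nuclei in 3xTg-AD and 37.6% ± 5.69 in WT, and sub-cluster 5 at 5.75% ± 6.31 and 28.2% ± 13.8 (SD, n = 3; exact permutation, adjusted p = 0.448 for each). A further 2 comparisons were not run because of called leading genes. They were sub-cluster 2 between genotypes at 12 months, and sub-cluster 4 between ages over both genotypes, whose leading gene Cpne8 was called between ages in WT. Subtype genes were then compared as shares of nuclei with a UMI after thinning each nucleus to 4000 UMIs, which left 239 of 249 nuclei. Over 15 genes and 75 exact permutation tests, 0 passed the adjusted threshold and 1 had an unadjusted p under 0.05. The smallest p that 6 libraries against 6 allow was 0.00216, so no single test could pass alone after adjustment over 75. The count of 0 thus does not show that the shares were equal. Without thinning, 0 of the tests had an unadjusted p under 0.05.

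Nos1 and Crhbp were the subtype genes whose thinned shares did not overlap between genotypes at 12 months. Nos1 was found in 30.8%, 44.4% and 26.1% of the nuclei of 3xTg-AD replicates 2, 6 and 10, and in 0%, 11.8% and 7.69% of those of WT replicates 4, 8 and 12. All 3xTg-AD libraries were above all WT libraries, by 27.3 percentage points (33.8% ± 9.54 against 6.49% ± 5.97, SD, n = 3; exact permutation p = 0.1, the smallest possible; adjusted p = 0.719). The unthinned shares were 35.7%, 44.4% and 29.2% in 3xTg-AD and 0%, 21.1% and 15.4% in WT. At 6 months the groups overlapped, at 37.8% ± 16.7 in 3xTg-AD and 36.4% ± 15.2 in WT (SD, n = 3; exact permutation p = 1). The 0% of WT replicate 4 rests on 7 nuclei. Crhbp, which binds corticotropin-releasing hormone, was detected in 12.2% ± 7.39 of thinned nuclei in 3xTg-AD and 25.7% ± 7.03 in WT (SD, n = 3; exact permutation p = 0.1, adjusted p = 0.719). The gap was narrow, between 17.4% in 3xTg-AD replicate 10 and 17.6% in WT replicate 8, and the unthinned shares of Crhbp overlapped (21.4%, 11.1% and 29.2% in 3xTg-AD; 28.6%, 21.1% and 30.8% in WT).

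Reln was detected in 60.2% ± 22.3 (SD, n = 6) of thinned nuclei per library at 12 months and in 38.3% ± 13.1 (SD, n = 6) at 6 months (exact permutation p = 0.052, adjusted p = 0.719). By genotype it was at 74.1% ± 23.9 at 12 months and 38.8% ± 3.59 at 6 months in WT (SD, n = 3). In 3xTg-AD it was at 46.4% ± 9.90 and 37.8% ± 20.3 (SD, n = 3). The 12-month WT mean includes the 100% of WT replicate 4, which rests on 7 nuclei. Elfn1 was at 32.0% ± 5.96 in 3xTg-AD and 15.2% ± 6.12 in WT at 6 months, with no overlap, and at 29.0% ± 7.68 and 41.7% ± 14.1 at 12 months (SD, n = 3). The change of its genotype difference with age was -29.5 percentage points (exact permutation p = 0.01 with genotypes permuted inside each age, adjusted p = 0.719). Unthinned, the 6-month shares of Elfn1 overlapped (61.1%, 25% and 31.8% in 3xTg-AD; 45.0%, 24% and 20.8% in WT), and the change with age was -22.8 points (exact permutation p = 0.28).

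Gene expression was compared between genotypes on UMI counts summed over the somatostatin nuclei of each library. The mouse genes that match the transgenes were read first. App (-0.07) and Mapt (-0.03), whose transgenes carry human sequence, had log2 fold changes near 0 on these mouse gene models.

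Over both ages 4 genes differed between genotypes (adjusted p under 0.05 and a log2 fold change beyond 0.2), which is 0.102% of the 3937 genes tested. At an unadjusted p under 0.05 there were 248 genes (6.3%), and DESeq2 called 6. Without 3xTg-AD replicate 1 there were 7 calls and without WT replicate 11 there were 8, both libraries of 6 months. Rnf152, a lysosomal ubiquitin ligase, and Gm2516, a long noncoding RNA, were higher in 3xTg-AD (0.0508% of genes tested), and Lynx1, a membrane-anchored modulator of nicotinic receptors, and Cfap54, a ciliary protein, were lower (0.0508%). Libraries of the 2 genotypes did not overlap for Rnf152, Lynx1 and Cfap54, and they did not overlap for 15 genes in all (0.381% of those tested).

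Rnf152 (chromosome 1, 105276914 to 105356710, minus strand) was at 73.4, 62.9 and 50.6 CPM in the 6-month WT libraries and 297, 158 and 147 CPM in the 6-month 3xTg-AD libraries. At 12 months it was at 128, 61.8 and 62.5 CPM in WT and 372, 257 and 195 CPM in 3xTg-AD. Every 3xTg-AD library was higher than every WT library, by 1.76 ± 0.25 (SE) on the log2 scale (edgeR quasi-likelihood test, Benjamini-Hochberg adjusted p = 0.00452). The difference kept its call in all 19 alternatives that could be fitted for it, including each library left out.

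Lynx1 (chromosome 15, 74747852 to 74753046, minus strand) was at 47.5, 49.4 and 61.9 CPM in WT and at 5.72, 31.6 and 4.20 CPM in 3xTg-AD at 6 months. At 12 months it was at 78.9, 98.9 and 111 CPM in WT and at 30.6, 12.1 and 24.3 CPM in 3xTg-AD. The somatostatin nuclei held 96 Lynx1 UMIs over all 12 libraries, so its low 3xTg-AD levels rest on few UMIs. The 2 genotypes did not overlap, and the log2 fold change was -2.18 ± 0.34 (SE; edgeR quasi-likelihood test, Benjamini-Hochberg adjusted p = 0.00631), a call kept in all 16 alternatives that could be fitted. Cfap54 (chromosome 10, 92775619 to 93081618, minus strand) was at 40.4 to 155 CPM in WT and 11.4 to 38.9 CPM in 3xTg-AD, a log2 fold change of -1.84 ± 0.33 (SE; edgeR quasi-likelihood test, Benjamini-Hochberg adjusted p = 0.0211). Its call was lost without any 1 of 5 libraries (WT replicates 3, 8 and 12 and 3xTg-AD replicates 6 and 10), with log2 fold changes of -1.65 to -1.83 there. Gm2516 (chromosome 8, 50368112 to 50416088, plus strand) was at 48.6 to 190 CPM in WT and 133 to 568 CPM in 3xTg-AD, so its libraries overlapped with the ages pooled. Within each age they did not overlap. Gm2516 was at 107 to 190 CPM in WT and 246 to 568 CPM in 3xTg-AD at 6 months, and at 48.6 to 80.4 and 133 to 229 CPM at 12 months.

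The same genes were read in the other GABAergic nuclei of each library, which were not filtered on Rgs9. In these nuclei, Rnf152 was at 32.5 to 53.4 CPM in WT and 151 to 211 CPM in 3xTg-AD at 6 months, and at 46.4 to 110 CPM and 107 to 144 CPM at 12 months. Lynx1 was at 44.1 to 62.9 CPM in WT and 25.8 to 34.3 CPM in 3xTg-AD there, and Cfap54 at 98.9 to 128 CPM and 40.1 to 43.5 CPM. Gm2516 overlapped there at both ages, at 47.1 to 84.4 CPM in WT and 63.9 to 76.8 CPM in 3xTg-AD at 6 months, and at 53.9 to 71.7 CPM and 70.8 to 104 CPM at 12 months. The direct test of whether a genotype difference differed between somatostatin and Pvalb nuclei called 0 of 4260 genes with edgeR, with 168 at an unadjusted p under 0.05 (3.94%), and 0 with DESeq2, with 77 at an unadjusted p under 0.05.

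**Figure D4:**
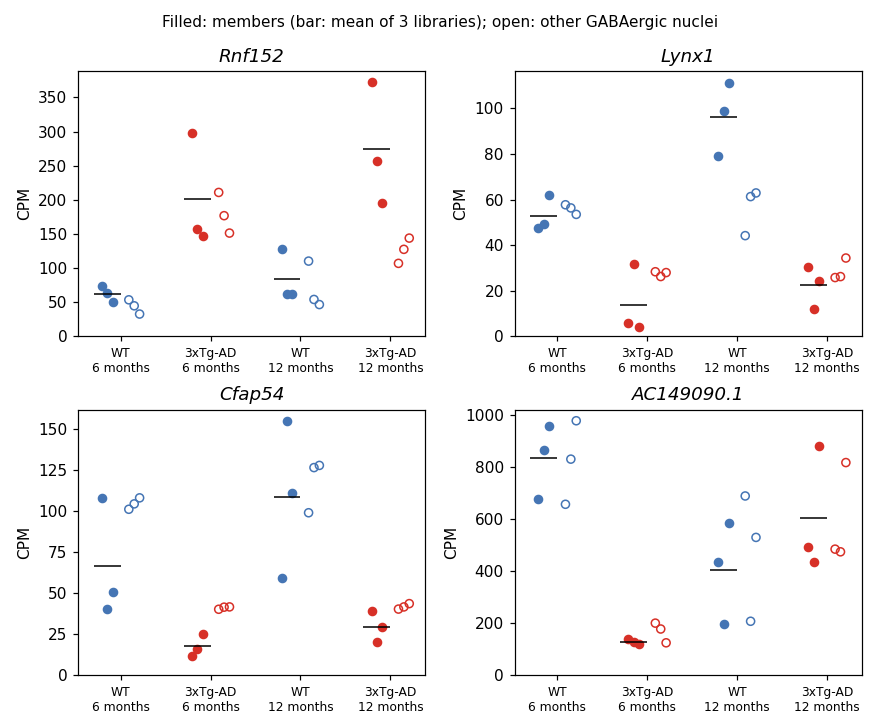
Level (y axis, CPM) of Rnf152, Lynx1, Cfap54 and AC149090.1 in each library, by genotype and age (x axis). Filled points are somatostatin nuclei, with a bar at the mean of 3 libraries, and open points are the other GABAergic nuclei of the same libraries. In the somatostatin nuclei, Rnf152 is higher and Lynx1 and Cfap54 are lower in 3xTg-AD at both ages, while AC149090.1 is separated at 6 months only. In the other GABAergic nuclei, Rnf152 overlaps between genotypes at 12 months (46.4 to 110 CPM in WT and 107 to 144 CPM in 3xTg-AD).

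At 6 months 1 gene of 3791 was called (0.0264%), with 192 at an unadjusted p under 0.05 (5.06%), and 3 genes were called without WT replicate 7. AC149090.1, a gene model without a position in the annotation used, was at 677, 867 and 957 CPM in WT and 137, 126 and 118 CPM in 3xTg-AD. The 3xTg-AD libraries were all lower, by 2.69 ± 0.26 (SE) on the log2 scale (edgeR quasi-likelihood test, Benjamini-Hochberg adjusted p = 8.19e-05). At 12 months it was at 434, 198 and 584 CPM in WT and 494, 434 and 881 CPM in 3xTg-AD, and the genotypes overlapped. Groups did not overlap for 11% of the genes tested at 6 months. The other GABAergic nuclei held 657 to 978 CPM of AC149090.1 in WT and 124 to 199.7 CPM in 3xTg-AD at 6 months. The 5 oligodendrocyte markers summed to 124 to 315 CPM in the 6-month WT somatostatin nuclei and 62.9 to 92.4 CPM in the 3xTg-AD ones, and their part in the 6-month differences was not tested.

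At 12 months 23 genes of 3462 were called (0.664%), 14 higher (0.404%) and 9 lower (0.26%) in 3xTg-AD, with 317 at an unadjusted p under 0.05 (9.16%). Higher genes included Dach1, a transcription cofactor, at 503, 450 and 200 CPM in 3xTg-AD and 39.5, 55.6 and 97.3 CPM in WT. Its groups did not overlap, and its log2 fold change was 2.56 ± 0.40 (SE; edgeR quasi-likelihood test, Benjamini-Hochberg adjusted p = 0.0195). Kcnab1, a potassium channel subunit (log2 fold change 1.88), Alcam, a cell adhesion molecule (1.58), Syt6, a synaptotagmin (2.83), Chsy3, a chondroitin synthase (1.61), Nxph2, a neurexin ligand (2.76), Rarb, a retinoic acid receptor (2.01), Tox3, a transcription factor (1.48), Pcdh11x, a protocadherin (1.32), Nell1, a secreted glycoprotein (0.99), Csmd3 (1.09), Ptprd, a receptor phosphatase (1.24), Rnf152 (1.80) and Gm2516 (1.54) were also higher. Lower genes were Ano3, a member of the anoctamin family (-2.87), Synpr, a synaptic vesicle protein (-1.34), Tiam2, an exchange factor for Rac (-2.61), Adamtsl1 (-1.85), A330008L17Rik (-2.27), Gm15680 (-3.21), Gm28175 (-1.77), Lynx1 (-2.05) and Cfap54 (-1.87). A330008L17Rik and Gm15680 overlap on opposite strands of chromosome 8, and whether their calls are independent of each other was not tested.

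Some of these genes differed in the same direction in the other GABAergic nuclei at 12 months. There Alcam was at 354 to 394 CPM in WT and 486 to 927 CPM in 3xTg-AD, Kcnab1 at 233 to 292 and 335 to 673 CPM, Rarb at 43.5 to 92.4 and 205 to 614 CPM, and Syt6 at 28 to 34.9 and 49.5 to 90.1 CPM. Csmd3 was also higher in 3xTg-AD there, at 1925 to 2050 CPM in WT and 2198 to 2434.5 CPM in 3xTg-AD. Of the lower genes, A330008L17Rik (253 to 284 CPM in WT and 126 to 195 CPM in 3xTg-AD) was also lower there without overlap. So were Adamtsl1 (98.9 to 152 and 43.1 to 89.6 CPM), Lynx1 and Cfap54, while Gm15680, Synpr and Gm28175 overlapped. Ano3 and Tiam2 were ordered the other way there, at 113 to 149 and 167 to 367 CPM for Ano3 and 18.4 to 23.8 and 30.9 to 50.7 CPM for Tiam2. Dach1 overlapped, at 103 to 132 CPM in WT and 121 to 316 CPM in 3xTg-AD. Unlike the somatostatin nuclei, this pool kept nuclei with an Rgs9 UMI. Of all GABAergic nuclei at 12 months, 31.1% to 52.1% had Rgs9 in the 3xTg-AD libraries and 22.0% to 27.9% in the WT libraries. The part of Rgs9 nuclei in the levels of this pool was not tested. In Pvalb nuclei, which held no Rgs9 UMI, Alcam overlapped at 12 months (268 to 546 CPM in WT and 315 to 593 CPM in 3xTg-AD). Kcnab1 and Rarb overlapped there as well, while Csmd3 did not (563 to 1119.5 and 1671 to 1939 CPM).

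The 12-month calls depended on single libraries and on which nuclei were kept. Leaving out 3xTg-AD replicate 2 or 6 gave 0 calls with edgeR (237 and 244 genes at an unadjusted p under 0.05), leaving out WT replicate 4 gave 4, and leaving out 3xTg-AD replicate 10 gave 50. DESeq2 called 33 genes on all 6 libraries. The 23 calls became 6 without Scrublet doublets, 1 with 5 or more Sst UMIs per nucleus and 0 with a Sox6 UMI (edgeR; 241 genes at an unadjusted p under 0.05). Each of the 19 genes picked at 12 months by smallest p and no overlap lost its call in 4 to 10 of the 10 to 14 alternatives that could be fitted. Alternatives were not counted for Gm2516, Csmd3, Ptprd and Rarb.

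Some genes called at 12 months also set sub-cluster 2 apart from the other somatostatin nuclei. Dach1, Nxph2 and Rarb were among its leading genes. In the 6-month libraries, the 32 nuclei of sub-cluster 2 were set against the 85 other somatostatin nuclei. The sub-clusters were drawn on all 249 nuclei, those of 12 months included, so this is a description and not independent of the 12-month differences, and no other sub-cluster was compared. Of the 14 genes called higher, 12 had a log2 ratio above 0 there, against 45.3% of all genes tested, and of the 9 called lower, 9 had a ratio below 0, against 54.7%. The median ratio was 1.38 for the genes called higher and -0.96 for those called lower, beside -0.04 for all genes tested. Alcam and Gm2516 were the 2 exceptions (ratios of -2.54 and -0.37).

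**Figure D5:**
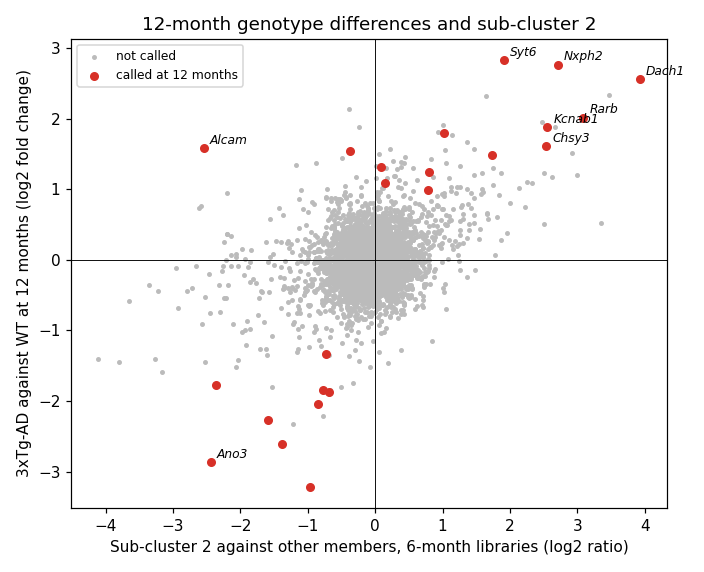
Log2 fold change of 3xTg-AD against WT at 12 months (y axis) plotted against the log2 ratio of sub-cluster 2 to the other somatostatin nuclei in the 6-month libraries (x axis, 20 CPM added to each level). Grey points are genes tested and red points the 23 called at 12 months; most red points lie at the upper right or the lower left, and Alcam lies at the upper left.

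Genes found with Nos1 were read as well, and none of the following passed the threshold. Nos1 was at 339, 526 and 375 CPM in 3xTg-AD and 0, 198 and 20.8 CPM in WT at 12 months, with no overlap (log2 fold change 2.33 ± 0.56 SE; edgeR quasi-likelihood test, Benjamini-Hochberg adjusted p = 0.0769). Npy was at 311, 281 and 565 CPM and at 69.1, 247 and 160 CPM, again with no overlap (log2 fold change 1.20 ± 0.35 SE; edgeR quasi-likelihood test, Benjamini-Hochberg adjusted p = 0.161). Tacr1 had a log2 fold change of 1.52 (edgeR quasi-likelihood test, Benjamini-Hochberg adjusted p = 0.0690) and Sox6 of 1.23 (adjusted p = 0.0748), while Zeb2, a leading gene of sub-cluster 3, had -1.45 (adjusted p = 0.0576). At 12 months 14% of the genes tested had groups that did not overlap.

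A comparison without the nuclei of sub-cluster 2, added after these data were seen, left 1 call at 12 months, Alcam, with 186 genes at an unadjusted p under 0.05. The same comparison over both ages left 3 calls (Rnf152, Gm2516 and Lynx1). Sub-cluster 2 was drawn on these nuclei and was led by called genes, so leaving it out removes part of the difference by construction. Of the 19 genes picked at 12 months by smallest p and no overlap, 15 could be fitted without it. All 15 had the same direction, 13 of them with a fold change nearer 0. Dach1, Syt6, Nxph2 and Cfap54 could not be fitted, and Dach1 and Nxph2 were leading genes of sub-cluster 2. Gm2516, Csmd3, Ptprd and Rarb, named after their values were seen, were not among the 19. The log2 fold change was 1.76 for Rnf152, 1.27 for Pcdh11x, -2.45 for Ano3 and -1.92 for Lynx1, beside 1.80, 1.32, -2.87 and -2.05 with all nuclei, and 0.99 for Chsy3 beside 1.61. A lower count of calls does not show that the differences were gone. A lower number of nuclei also gives fewer calls, and its part was not tested. Another measure moved with the 12-month groups. Rgs9 had a UMI in 52.1%, 51.8% and 31.1% of GABAergic nuclei in the 3xTg-AD libraries and in 22.0%, 22.7% and 27.9% in the WT libraries. Across the 12 libraries the thinned share of somatostatin nuclei with Nos1 and this Rgs9 share were correlated (Pearson's r = 0.719, Spearman's rho = 0.825). Within genotypes r was 0.928 and rho 0.943 over the 6 WT libraries, and r was 0.165 and rho 0.543 over the 6 3xTg-AD libraries. These are descriptions without a p, because Rgs9 is a gene of the rule, the measures share their libraries and each genotype mixes ages. The part of Rgs9 nuclei in the calls of single genes was not tested.

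Gene groups of somatostatin cells showed few calls between genotypes. At 12 months, 1 of 20 tested genes for synaptic adhesion was called, Nxph2, beside 0.664% of all genes tested, with a median log2 fold change of 0.22 over the list and -0.01 over all genes tested. In that list 7 genes had an unadjusted p under 0.05 (Nxph2, Cntn4, Cntn5, Cntnap4 and Cntnap5b with higher values in 3xTg-AD, Nlgn1 and Cdh9 with lower), beside 9.16% of all genes. Of 7 tested genes in the list of medial ganglionic eminence factors, which includes the noncoding Dlx6os1 and the Rac regulator Elmo1, 0 were called by edgeR, with 3 at an unadjusted p under 0.05 (Sox6 higher, Zeb2 and Npas3 lower). Of 11 tested subtype genes, 10 for peptide processing, 10 GABA-A receptor subunits, 15 ionotropic glutamate receptor subunits and 21 voltage-gated channels, 0 were called by edgeR, with 4, 1, 2, 1 and 4 at an unadjusted p under 0.05, where all genes gave 9.16%. Their median log2 fold changes were -0.02, -0.19, -0.03, -0.11 and -0.01. Sst itself, a gene of the rule, was at 725, 779 and 1309 CPM in 3xTg-AD and 345, 760 and 722 CPM in WT at 12 months, with 3xTg-AD replicate 2 inside the WT range. Over both ages the counts were 0 of 7 genes in the list of medial ganglionic eminence factors, 0 of 12 subtype genes, 0 of 11 for peptide processing and 0 of 21 for synaptic adhesion, called by edgeR, with 1, 0, 1 and 4 at an unadjusted p under 0.05. Over all genes tested 0.102% were called and 6.3% had an unadjusted p under 0.05. Cntn5, a contactin, had the smallest adjusted p of the adhesion genes, at a log2 fold change of 0.83 ± 0.22 (SE; edgeR quasi-likelihood test, Benjamini-Hochberg adjusted p = 0.299). DESeq2 calls were not counted by list. None of the 5 somatostatin receptors could be tested. Of 9 amyloid-degrading peptidases, 2 could be tested over both ages and 0 were called by edgeR, with 0 at an unadjusted p under 0.05; Mme, neprilysin, had a UMI in 20 of 249 nuclei.

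Age was compared within each genotype. In WT, 2 of 3300 genes were called (0.0606%), 1 higher and 1 lower (0.0303% each), with 270 at an unadjusted p under 0.05 (8.18%) and 17 calls by DESeq2. Clstn2, a postsynaptic calsyntenin, was at 108 to 147 CPM at 6 months and 359 to 681 CPM at 12 months, and Cpne8, a copine, at 180 to 236 CPM and 29.6 to 61.8 CPM. Neither gene overlapped between ages, as was the case for 14% of the genes tested (log2 fold changes of 1.92 and -1.90; edgeR quasi-likelihood test, Benjamini-Hochberg adjusted p = 0.0486 for each). Both calls were lost without WT replicate 4, 11 or 12, and in all 0 genes were then called by edgeR, with 292, 236 and 251 at an unadjusted p under 0.05. Without WT replicate 3, 7 or 8 there were 15, 8 and 10 calls. In all, Clstn2 and Cpne8 each lost the call in 10 of 14 alternatives, among them those without Scrublet doublets, with 5 or more Sst UMIs, with RLE scaling and with all 12 libraries in 1 fit. The Rgs9 share of GABAergic nuclei did not overlap between these groups either, at 35.3%, 37.9% and 57.0% at 6 months and 22.0%, 22.7% and 27.9% at 12 months, and its part in the age differences was not tested. Cpne8 was a leading gene of sub-cluster 4. In the other GABAergic nuclei, WT libraries held 300.2 to 364 CPM of Clstn2 at 6 months and 389 to 457 CPM at 12 months, and 75.0 to 92.6 and 83.5 to 114 CPM of Cpne8.

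In 3xTg-AD, 2 of 3986 genes were called with age (0.0502%), 1 higher and 1 lower (0.0251% each), with 199 at an unadjusted p under 0.05 (4.99%). AC149090.1 was higher at 12 months, by 2.25 ± 0.30 (SE) on the log2 scale (edgeR quasi-likelihood test, Benjamini-Hochberg adjusted p = 0.0044). Spag16, a sperm flagellum protein, was at 51.5 to 101 CPM at 6 months and 0 to 9.74 CPM at 12 months (log2 fold change -4.24; edgeR quasi-likelihood test, Benjamini-Hochberg adjusted p = 0.0135). The somatostatin nuclei held 61 Spag16 UMIs over all 12 libraries, and this call was lost in 5 of 11 alternatives. In the other GABAergic nuclei of 3xTg-AD, Spag16 was at 17.9 to 29.3 CPM at 6 months and 7.99 to 16.1 CPM at 12 months. Without 3xTg-AD replicate 9 at 6 months 0 genes were called by edgeR, with 205 at an unadjusted p under 0.05, and without replicate 10 at 12 months 10 were. Without replicates 1, 5 and 2 there were 4, 7 and 1 calls.

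Whether the genotype difference changed with age was tested as an interaction, and 6 of 4276 genes were called (0.14%), 4 with a positive term (0.0935%) and 2 with a negative one (0.0468%). At an unadjusted p under 0.05 there were 310 genes (7.25%). The positive terms were those of AC149090.1, Syt6, Csmd3 and Caln1, a calcium-binding protein, and the negative ones those of Naaladl2 and Ncam2, a neural cell adhesion molecule. Caln1 was at 90.6 to 186 CPM in WT and 40.0 to 63.1 CPM in 3xTg-AD at 6 months, and at 24.7 to 39.5 CPM and 75.0 to 137 CPM at 12 months. Each age thus had genotypes that did not overlap, in opposite order. Leaving out 3xTg-AD replicate 9 at 6 months gave 0 calls by edgeR, with 308 genes at an unadjusted p under 0.05, and leaving out sub-cluster 2 gave 0, with 202. Without 3xTg-AD replicate 1 there were 2 calls, and without 3xTg-AD replicate 2 or 6 or WT replicate 4 or 11 there was 1. Without WT replicate 3, 3xTg-AD replicate 10, 3xTg-AD replicate 5 and WT replicate 8 there were 14, 14, 16 and 10.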

How the data were processed

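The deposited matrices hold raw UMI counts per gene and nucleus, which the authors made from 10x Chromium 3′ reads with Cell Ranger (version 6.1.1 and mm10, per the submitters' processing notes), filtered to called nuclei; whether introns were counted is not given in the sources used here. Libraries held 11352 to 19811 retained nuclei. No correction for ambient RNA was made here. Members, gene lists and tests were chosen with earlier results of these data known.

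Counts were summed over the somatostatin nuclei of each library and tested with edgeR 4.0.16 (TMM, filterByExpr, quasi-likelihood test, R 4.3.3), with Benjamini-Hochberg adjustment over all genes tested; DESeq2 1.42.0 was an alternative. The scripts were tested on simulated data. The genes of the rule stayed in the fits and out of the counts of calls. Named genes were those of the fixed lists and, per comparison, up to 10 genes called per direction, by smallest p, whose groups did not overlap; Gm2516, Csmd3, Ptprd and Rarb were named after their values were seen. Shares were compared by exact permutation over libraries. Pvalb nuclei (103) held Pvalb, Lhx6 and no Sst; Vip nuclei (185) held at least 2 Vip UMIs and none of Lhx6, Sst or Pvalb; GABAergic nuclei (52176) held Gad1 or Gad2, no Slc17a7 or Slc17a6 and fewer than 2 Mobp UMIs. Oligodendrocytes held at least 5 Mobp UMIs and no transmitter gene. Sub-clusters came from scanpy 1.11.5 (1000 variable genes, 15 components, Leiden resolution 0.5). Gene positions are from GENCODE on mm10. Intervals cover counting error only. Some genes are not reported here.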

Additional observations from a re-analysis of the deposited data

Results flagged for a closer look

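The genotype difference changed with age for 6 genes of 4276 tested (0.14%; 310 at an unadjusted p under 0.05), by the interaction term of the edgeR quasi-likelihood test with Benjamini-Hochberg adjustment, and that flagged them. The log2 difference between 3xTg-AD and WT at 12 months minus that at 6 months was 3.24 for AC149090.1, 3.67 for Syt6, 2.83 for Caln1, 1.52 for Csmd3, -2.49 for Naaladl2 and -1.82 for Ncam2. Syt6 was at 82.0 to 146 CPM in WT and 33.6 to 80.1 CPM in 3xTg-AD at 6 months, and at 9.87 to 20.8 CPM and 82.7 to 137 CPM at 12 months. Ncam2 was at 445 to 759 CPM in WT and 805 to 1372 CPM in 3xTg-AD at 6 months, and at 1139 to 1559 CPM and 661 to 818 CPM at 12 months. The call of AC149090.1 was lost in 2 of 19 alternatives, without 3xTg-AD replicate 9 and without sub-cluster 2, and that of Caln1 in 13 of 19.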

How the results depend on the processing

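No paired analysis was made because the labels name no litter or pair of mice. Rnf152 and Lynx1 over both ages and AC149090.1 at 6 months kept their calls in every alternative that could be fitted. No gene picked by smallest p reversed in a comparison it was picked for. Reversals were not counted for Gm2516, Rarb and Ptprd, nor for Csmd3 at 12 months. Counts of called genes moved as follows. Without a filter on low counts they were 26 at 6 months, 133 at 12 months, 49 over both ages, 76 with age in WT, 41 with age in 3xTg-AD and 75 for the interaction. DESeq2 gave 17 with age in WT and 12 for the interaction. With 5 or more Sst UMIs they were 1 at 12 months, 8 over both ages, 0 with age in WT and 2 for the interaction. With a Sox6 UMI they were 2 at 6 months, 0 at 12 months (241 at an unadjusted p under 0.05), 2 over both ages, 0 with age in WT, 1 with age in 3xTg-AD and 1 for the interaction. Without Scrublet doublets they were 6 at 12 months, 0 with age in WT and 1 with age in 3xTg-AD. With all 12 libraries in 1 fit they were 15, 0 and 1 in that order, and RLE scaling gave 0 with age in WT. Without sub-cluster 2, added after the data were seen, they were 2 at 6 months, 1 at 12 months, and 0 with age in WT, with age in 3xTg-AD and for the interaction. Leaving out 1 library gave 1 to 3 calls at 6 months, 0 to 50 at 12 months, 3 to 8 over both ages, 0 to 15 with age in WT, 0 to 10 with age in 3xTg-AD and 0 to 16 for the interaction. The cause of these moves was not tested. The genotype difference over both ages reversed with 5 or more Sst UMIs, to -0.0002992 points of retained nuclei and -0.02409 points of GABAergic nuclei. Without 1 library it ran from -0.009644 to 0.03602 points of retained nuclei, from -0.05246 to 0.0728 points of GABAergic nuclei and from -0.07579 to 0.5921 for the ratio to Pvalb nuclei. The age difference ran from -0.01103 to 0.03697 points of retained nuclei and from -0.001774 to 0.6661 for the ratio, and the 6-month ratio from -0.7828 to 0.3442. With 7 to 42 nuclei per library, genes below the filter could not be tested.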
